A study of Mus musculus with 12 samples.

Results

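FRA-1 peaks around 10 genes of eicosanoid synthesis numbered 7.7 per replicate in unstimulated peritoneal macrophages, 16.0 after LPS and 22.3 after apoptotic cells, and the replicates' total numbers of peaks were higher after both stimuli too. Without apoptotic cell replicate 3 the last mean was 13.0, below that of LPS. Of their 116 regions, 107 had a peak in 1 replicate. The most widely shared of the 116 were near Ptgis, Alox15 and Ptges. Outside the 20 kb windows, a place 29891 bp upstream of Ptgs2, singled out after its values were seen, had a peak in 7 of 9 replicates. The 10 genes are a list of enzymes, and 1 partner protein, of prostaglandin and leukotriene synthesis: Pla2g4a, Ptgs1, Ptgs2, Ptges, Ptgis, Alox5, Alox5ap, Lta4h, Ltc4s and Alox15. They are 10 of the 49939 RefSeq genes on chromosomes 1 to 19, X and Y. A peak was counted for a gene when the deposited gene column named it or when the peak lay within 20 kb of the gene body (RefSeq, GRCm38). By this rule the 10 genes had 138 peaks of 375170 in all, which fell into 116 of 300608 merged genomic regions. Each of the 10 genes had a peak in at least 2 of the 9 replicates. No share of all genes is given for that rule, but 34566 of the 49939 genes had a peak in at least 4 replicates.

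Eicosanoids are short-lived lipid signals made from arachidonic acid. Cytosolic phospholipase A2 releases the acid from membranes, cyclooxygenases turn it into prostaglandin H2, and terminal synthases make prostaglandin E2 or prostacyclin from that. 5-lipoxygenase with its partner protein FLAP starts the leukotriene branch, while 12/15-lipoxygenase makes precursors of lipid mediators of resolution. Macrophages are a main source of these mediators in inflammation, and cyclooxygenase 2 is a known LPS-induced enzyme of these cells. FRA-1, the product of Fosl1, is a Fos family protein that binds DNA as a partner of Jun proteins in the AP-1 factor.

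FRA-1 binding was measured by chromatin immunoprecipitation and sequencing (ChIP-seq) in peritoneal macrophages of 8-week-old male or female mice. By the sample records the mice had a 129/C57Bl6 background and the cells were elicited with thioglycollate and collected 72 h later, whereas the design text names C57Bl/6 mice and plain lavage. After a night in culture, adherent cells were left unstimulated, given LPS, or given apoptotic cells at a ratio of 1:5, for 1 h and with 3 replicates each. The LPS dose is 1 µg/mL in the sample records and 10 µg/mL in the design text. The records give the same 3 mice for every condition, whereas the design text counts 9 mice. The score columns name no mouse, so replicates are numbered by column and could not be paired, and whether the conditions share mice cannot be told. The p-values below are from unpaired exact permutation tests of the difference in means, with 3 replicates per condition. They rest on these replicates alone, and any pairing by mouse is not taken into account. No expression was measured, and cell identity could not be checked by transcript levels. Of 6 macrophage genes looked at as places of binding, Mrc1 had a peak within 20 kb in 9 replicates, Csf1r in 8, Adgre1 in 7, Itgam in 6, Lyz2 in 5 and Cd68 in 2.

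Replicates differed in ways the conditions do not account for. They had 20981 to 28314 peaks without stimulation, 39728 to 63010 after LPS and 31501 to 79474 after apoptotic cells. Replicates were classed by the width of their smallest peak alone. Unstimulated replicate 3, LPS replicates 1 and 3 and apoptotic cell replicate 3, at 104 to 116 bp, were called narrow. The other 5, at 158 to 172 bp, were called wide. Apoptotic cell replicate 3 had a median width of 172 bp. That is nearer to the medians of the wide replicates (190 to 223 bp) than to those of the other narrow ones (113 to 140 bp). Around the 10 genes, unstimulated replicate 3 shared 4 of its 6 regions with each of LPS replicates 1 and 3, but 0 with unstimulated replicate 1 and 1 with unstimulated replicate 2. LPS replicates 1 and 3 shared 5 of their 17 regions each, and LPS replicate 2 shared 1 of its 14 with either. Each peak has a score, lowest near 50.01. By its range the score was taken to rise as the peak's p-value falls. In every replicate one score was frequent, taken by 8.26 to 14.4% of its peaks and by 15 of the 138 peaks (10.9%) around the 10 genes.

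Summed over the 10 genes, unstimulated macrophages had 9, 8 and 6 peaks in their 3 replicates, or 7.7 ± 1.5 (mean ± SD, n = 3). LPS-stimulated macrophages had 17, 14 and 17 peaks, or 16.0 ± 1.7 (SD, n = 3). Macrophages given apoptotic cells had 12, 14 and 41 peaks, or 22.3 ± 16.2 (SD, n = 3). Every LPS and every apoptotic cell replicate was thus above every unstimulated one, and apoptotic cell replicate 3 stood far above the other 8. The replicates' total numbers of peaks were higher as well. With equal numbers of top-scoring peaks taken from each replicate, the means were 6.333 without stimulation, 5.667 after LPS and 10.67 after apoptotic cells, so that LPS lay below unstimulated. Per 10000 peaks of the replicate, the 10 genes had 3.55, 3.81 and 2.12 peaks without stimulation, 3.7, 3.52 and 2.7 after LPS, and 2.94, 4.44 and 5.16 after apoptotic cells, so that the 3 conditions overlapped. Within the wide replicates the means per 10000 peaks were 3.68 without stimulation (n = 2), 3.52 after LPS (n = 1) and 3.69 after apoptotic cells (n = 2). Within the narrow ones they were 2.12 (n = 1), 3.2 (n = 2) and 5.16 (n = 1). The density of peaks in the windows of the 10 genes lay close to that in the windows of all protein-coding genes in most replicates. In peaks per 100 kb it was 1.09 against 1.03, 0.968 against 0.828 and 0.726 against 1.16 in unstimulated replicates 1 to 3. It was 2.06 against 1.95, 1.69 against 1.56 and 2.06 against 2.87 in LPS replicates 1 to 3. It was 1.45 against 1.62, 1.69 against 1.26 and 4.96 against 3.3 in apoptotic cell replicates 1 to 3. Apoptotic cell replicate 3 stood farthest above, and LPS replicate 3 farthest below, the line of equal density.

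**Figure D1:**
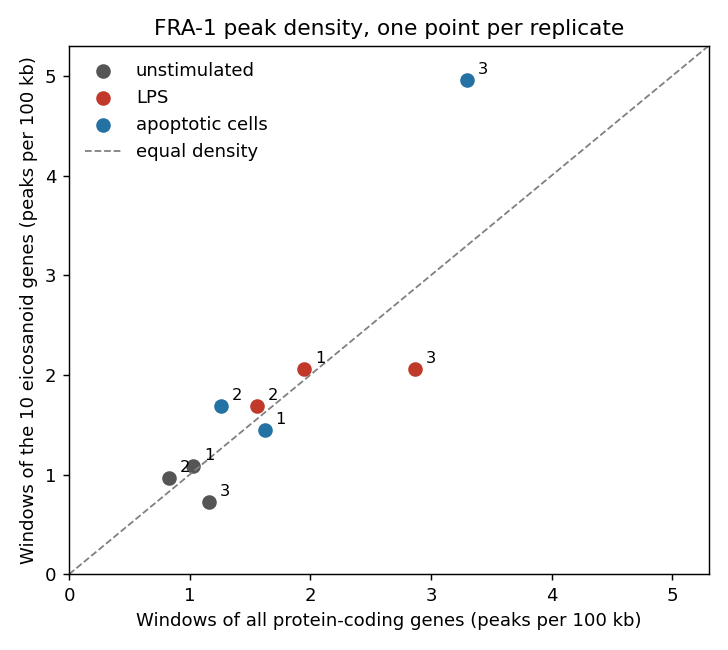
Peaks per 100 kb in the 20 kb windows of the 10 eicosanoid synthesis genes (vertical axis) against those in the windows of all protein-coding genes (horizontal axis), with 1 numbered point per replicate, coloured by condition, and a dashed line of equal density. Apoptotic cell replicate 3 lies above the line at 4.96 against 3.3 and LPS replicate 3 below it at 2.06 against 2.87, with the other 7 nearer to it.

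Without stimulation, 5 of the 10 genes had a peak in at least 2 of 3 replicates, against 35.3% of all RefSeq genes. They were Ptgis, Alox5, Alox5ap, Lta4h and Alox15. After LPS, 7 of 10 did, against 64.2% of all genes, and Pla2g4a, Ptgs1 and Ptges were now among them while Lta4h was not. After apoptotic cells, 8 of 10 did, against 60.8% of all genes, and only Ptgs1 and Ltc4s were missing. Among protein-coding genes, a background chosen after seeing the data, the shares were 44.7%, 73.5% and 69.7%. The counts with LPS and with apoptotic cells were close to the background, and the unstimulated one was near the protein-coding share.

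A gene was called where every replicate of one condition had more peaks than every replicate of the other, which 3 replicates against 3 reach with an exact permutation p of 0.1, the smallest they allow. LPS was above unstimulated at 2 of 10 genes, Pla2g4a and Ptges, against 7.6% of all genes (9.87% of protein-coding genes), and unstimulated above LPS at 0, against 0.194%. Apoptotic cells were above unstimulated at 2 of 10 genes, Pla2g4a and Ptgs2, against 5.29% (6.57% of protein-coding genes), and unstimulated above apoptotic cells at 0, against 0.21%. No gene of the 10 was called between LPS and apoptotic cells, where 1.89% of all genes were higher with LPS and 1.33% higher with apoptotic cells. The calls with LPS and with apoptotic cells share the same 3 unstimulated replicates, so they are not separate evidence. With equal numbers of top-scoring peaks in every replicate, LPS was wholly above unstimulated at 0 of the 10 genes and apoptotic cells at 1. With the deposited gene column alone, neither was above at any of the 10. That column gave these genes 10 segments in all and at most 3 to a single gene. A call needs a peak in each of 3 replicates, so this setting could hardly give one and cannot weigh the calls. No share of all genes is given for either setting, so these counts are not read against a background.

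**Figure D2:**
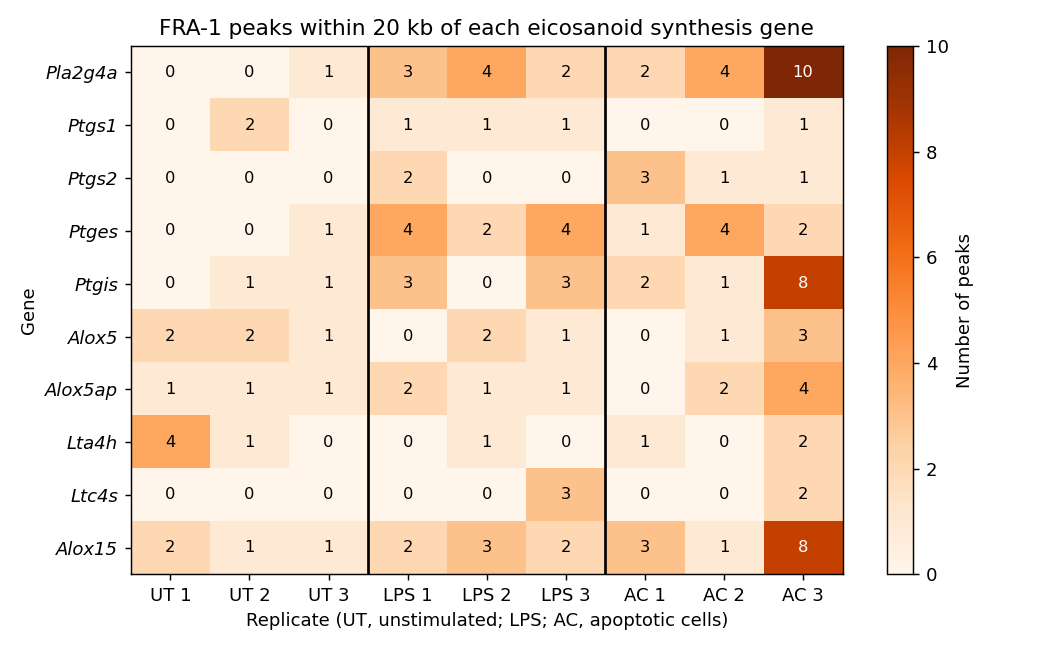
Number of FRA-1 peaks within 20 kb of each of the 10 genes (rows) in each of the 9 replicates (columns: UT, unstimulated, then LPS, then AC, apoptotic cells), with darker cells for more peaks. Pla2g4a has 0, 0 and 1 peaks without stimulation and 2 to 10 in the other replicates, whereas Alox5 and Lta4h have as many or more peaks without stimulation as after LPS.

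Pla2g4a encodes cytosolic phospholipase A2, which frees arachidonic acid from membrane lipids. It is the longest of the 10 genes, on chromosome 1 from 149829618 to 149961290 (131.7 kb), transcribed towards lower coordinates. It had 0, 0 and 1 peaks without stimulation, 3, 4 and 2 after LPS, and 2, 4 and 10 after apoptotic cells. The means were 0.33 ± 0.58, 3.0 ± 1.0 and 5.33 ± 4.16 peaks (SD, n = 3 each), and both stimulated groups lay wholly above the unstimulated one (p = 0.1 for each, two-sided exact permutation test). Per 10000 peaks of the replicate the values were 0.0, 0.0 and 0.35 without stimulation, 0.65, 1.01 and 0.32 after LPS, and 0.49, 1.27 and 1.26 after apoptotic cells. On that scale LPS replicate 3 fell below unstimulated replicate 3, and the groups overlapped for LPS but not for apoptotic cells. The 26 peaks of Pla2g4a formed 26 separate regions, each in 1 replicate, 22 of them inside the gene. The highest score was 313.44 in apoptotic cell replicate 3, inside the gene from 149887147 to 149887260, at the 99.2nd percentile of that replicate's scores. No position in or near Pla2g4a thus had a peak in more than 1 replicate, although 7 replicates had a peak there.

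Ptgs1 and Ptgs2 encode cyclooxygenases 1 and 2, the constitutive and the inducible enzyme that make prostaglandin H2. Ptgs1 lies on chromosome 2 from 36216742 to 36258593. It had 0, 2 and 0 peaks without stimulation, 1 in each LPS replicate, and 0, 0 and 1 after apoptotic cells. These numbers overlapped between all conditions (exact permutation test, two-sided, p = 1.0 for LPS and 1.0 for apoptotic cells against unstimulated). Its 6 peaks were at 6 different places, 3 of them inside the gene, with scores from 103.72 to 207.88. The highest, in LPS replicate 2, spanned 36262595 to 36262800, 4002 bp downstream of the gene's end.

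Ptgs2 lies on chromosome 1 from 150100031 to 150108234, is transcribed towards higher coordinates, and had no peak inside the gene in any replicate. Within 20 kb it had 0 peaks in all 3 unstimulated replicates, 2, 0 and 0 after LPS, and 3, 1 and 1 after apoptotic cells. The means were 0.0 without stimulation, 0.67 ± 1.15 after LPS and 1.67 ± 1.15 after apoptotic cells (SD, n = 3 each). Apoptotic cells were above unstimulated in 3 of 3 replicates (exact permutation test, two-sided, p = 0.1), and LPS in 1 of 3 (exact permutation test, two-sided, p = 1.0). Counted within 5 kb instead, Ptgs2 had 0 peaks in every unstimulated and apoptotic cell replicate and kept 1 of LPS replicate 1. The 7 peaks lay at 7 places, 4 upstream and 3 downstream of the gene, with scores of 96.58 to 200.47. The highest, 200.47 in LPS replicate 1, spanned 150093009 to 150093151, 6880 bp upstream. All 4 upstream peaks overlapped Ptgs2os, a long noncoding RNA gene from 150074873 to 150099874. The one nearest to the Ptgs2 start, 2442 bp upstream in LPS replicate 1, had a score of 96.58 and was the only peak that the deposited gene column gives to Ptgs2.

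Just beyond the 20 kb window lay the place next to Ptgs2 that most replicates shared. It was singled out after its values were seen. From 150069956 to 150070140, 29891 bp upstream of the Ptgs2 start and 4733 bp below Ptgs2os, 7 of 9 replicates had a peak. Its scores were 146.67 in unstimulated replicate 3, 211.37, 207.51 and 427.54 in LPS replicates 1 to 3, and 129.28, 133.53 and 193.45 in apoptotic cell replicates 1 to 3. Unstimulated replicates 1 and 2 had no peak listed there. All 6 stimulated replicates therefore had a peak, and the single unstimulated one was of the narrow class, as were LPS replicates 1 and 3. As percentiles of their own replicates these scores ranked from 42.6 in apoptotic cell replicate 2 to 95.9 in LPS replicate 3. The stretch between Pla2g4a and Ptgs2 is 138.7 kb long and held 19 regions, of which 2 had a peak in at least 2 replicates. In that stretch unstimulated replicates had 0, 0 and 3 regions, LPS replicates 4, 3 and 5, and apoptotic cell replicates 4, 4 and 3, so that unstimulated replicate 3 equalled the lowest LPS and apoptotic cell replicates and the other 2 had none. With a window of 50 kb, 3 of the 10 genes, Ptgs2, Ptgis and Alox15, had a region shared by 6 or more of the 9 replicates, against 22.0% of all genes and 26.7% of protein-coding genes. With 20 kb, Ptgis and Alox15 did, against 12.3% and 16.6%.

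**Figure D3:**
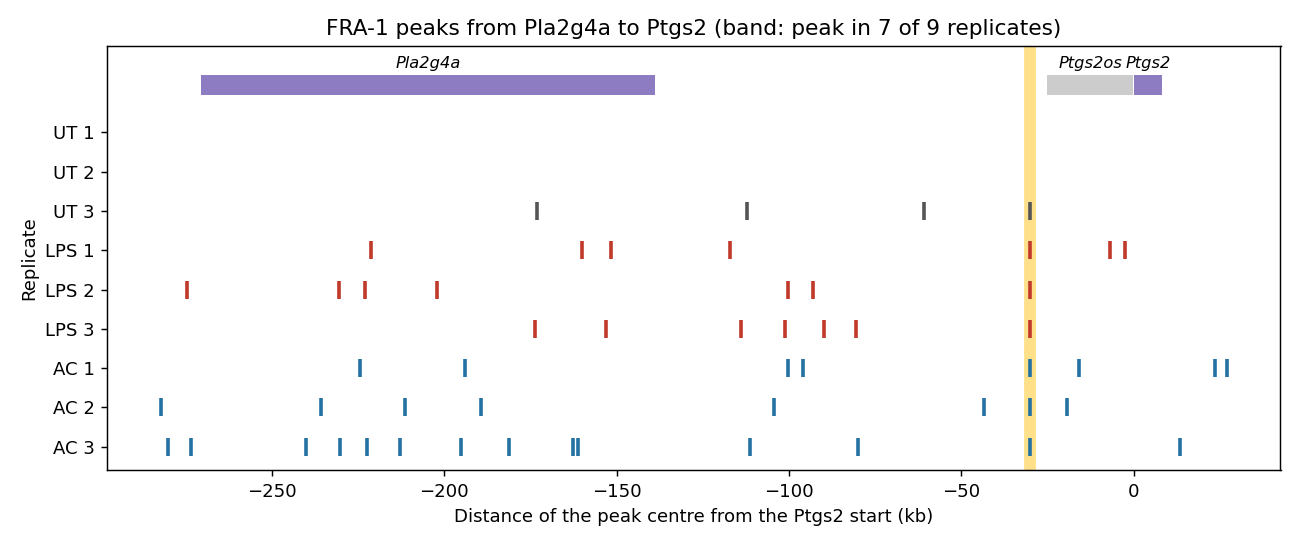
Peaks of each replicate (rows, as marks at the peak centres) from Pla2g4a to Ptgs2, by distance from the Ptgs2 start in kb, with bars for the genes and a yellow band, widened for visibility, at the region 29891 bp upstream of Ptgs2. The band holds a peak in 7 of 9 replicates, while the marks over Pla2g4a fall at a different place in each replicate.

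The 5 genes whose peaks per 10000 were most like those of Ptgs2 over the 9 replicates were Gm3176 (Pearson r = 0.99) and Gm18342, Gm2333, Gm23903 and Gm46941 (r = 0.97 each), among 34566 genes with a peak in at least 4 replicates. They are 3 pseudogenes, a snoRNA and a long noncoding RNA, with 0 peaks in each unstimulated replicate and 0 to 3 in the others. With so few peaks per gene, this likeness rests on 1 to 3 peaks in any replicate.

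Ptges encodes the inducible prostaglandin E2 synthase, which takes over prostaglandin H2 from the cyclooxygenases. It lies on chromosome 2 from 30889471 to 30931020 and is transcribed towards lower coordinates. It had 0, 0 and 1 peaks without stimulation, 4, 2 and 4 after LPS, and 1, 4 and 2 after apoptotic cells. The means were 0.33 ± 0.58, 3.33 ± 1.15 and 2.33 ± 1.53 peaks (SD, n = 3 each). LPS lay wholly above unstimulated (exact permutation test, two-sided, p = 0.1), and apoptotic cells met it at 1 peak (p = 0.2 in the same exact test). Per 10000 peaks Ptges had 0.0, 0.0 and 0.35 without stimulation against 0.87, 0.5 and 0.63 after LPS, so that LPS was again wholly above.

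Inside Ptges, 4 of 9 replicates had a peak from 30919426 to 30919587. Its scores were 244.1 in unstimulated replicate 3, 178.77 and 324.62 in LPS replicates 1 and 3, and 133.78 in apoptotic cell replicate 2. Of these 4 replicates 3 were of the narrow class, and all 3 unstimulated and LPS replicates of that class had the peak. As percentiles of their own replicates the scores ranked at 90.2, 77.6, 87.1 and 57.1, highest in unstimulated replicate 3. It lay 16129 bp upstream of the transcription start that the promoter table gives for Ptges, inside a longer gene model. A second shared region, 30887439 to 30887559, lay 1912 bp beyond the 3′ end and had a peak in LPS replicates 1 and 3, with scores of 136.64 and 189.7. It was the only one of the 116 regions that 2 or more LPS but 0 unstimulated replicates had, against 4.2% of all regions. The remaining 12 regions of Ptges were in 1 replicate each. One of these, named after its values were seen, was a peak of LPS replicate 1 from 30931081 to 30931220, 61 bp beyond the upstream end of the longest Ptges gene model, with a score of 135.7.

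Ptgis encodes prostacyclin synthase. It lies on chromosome 2 from 167203194 to 167252150 and had 0, 1 and 1 peaks without stimulation, 3, 0 and 3 after LPS, and 2, 1 and 8 after apoptotic cells. The groups overlapped (exact permutation test, two-sided, p = 0.4 for LPS and 0.3 for apoptotic cells against unstimulated), and LPS replicate 2 was the one LPS replicate without a peak. From 167265682 to 167265915, 13532 bp beyond the gene's upper-coordinate end, 7 of 9 replicates had a peak. This was the most widely shared of the 116 regions. Its scores were 173.59 and 150.97 in unstimulated replicates 2 and 3, 361.55 and 601.12 in LPS replicates 1 and 3, and 129.52, 133.78 and 203.57 in apoptotic cell replicates 1 to 3. Unstimulated replicate 1 and LPS replicate 2 had none listed. The score of LPS replicate 3 was the highest of all 138 peaks and ranked at the 99.8th percentile of its replicate, and that of LPS replicate 1 at the 96.4th. A region next to it, 167266069 to 167266309, was listed in LPS replicate 3 and apoptotic cell replicate 3, with scores of 82.36 and 58.43. Regions with a peak in exactly 7 of 9 replicates made up 0.39% of all regions.

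**Figure D4:**
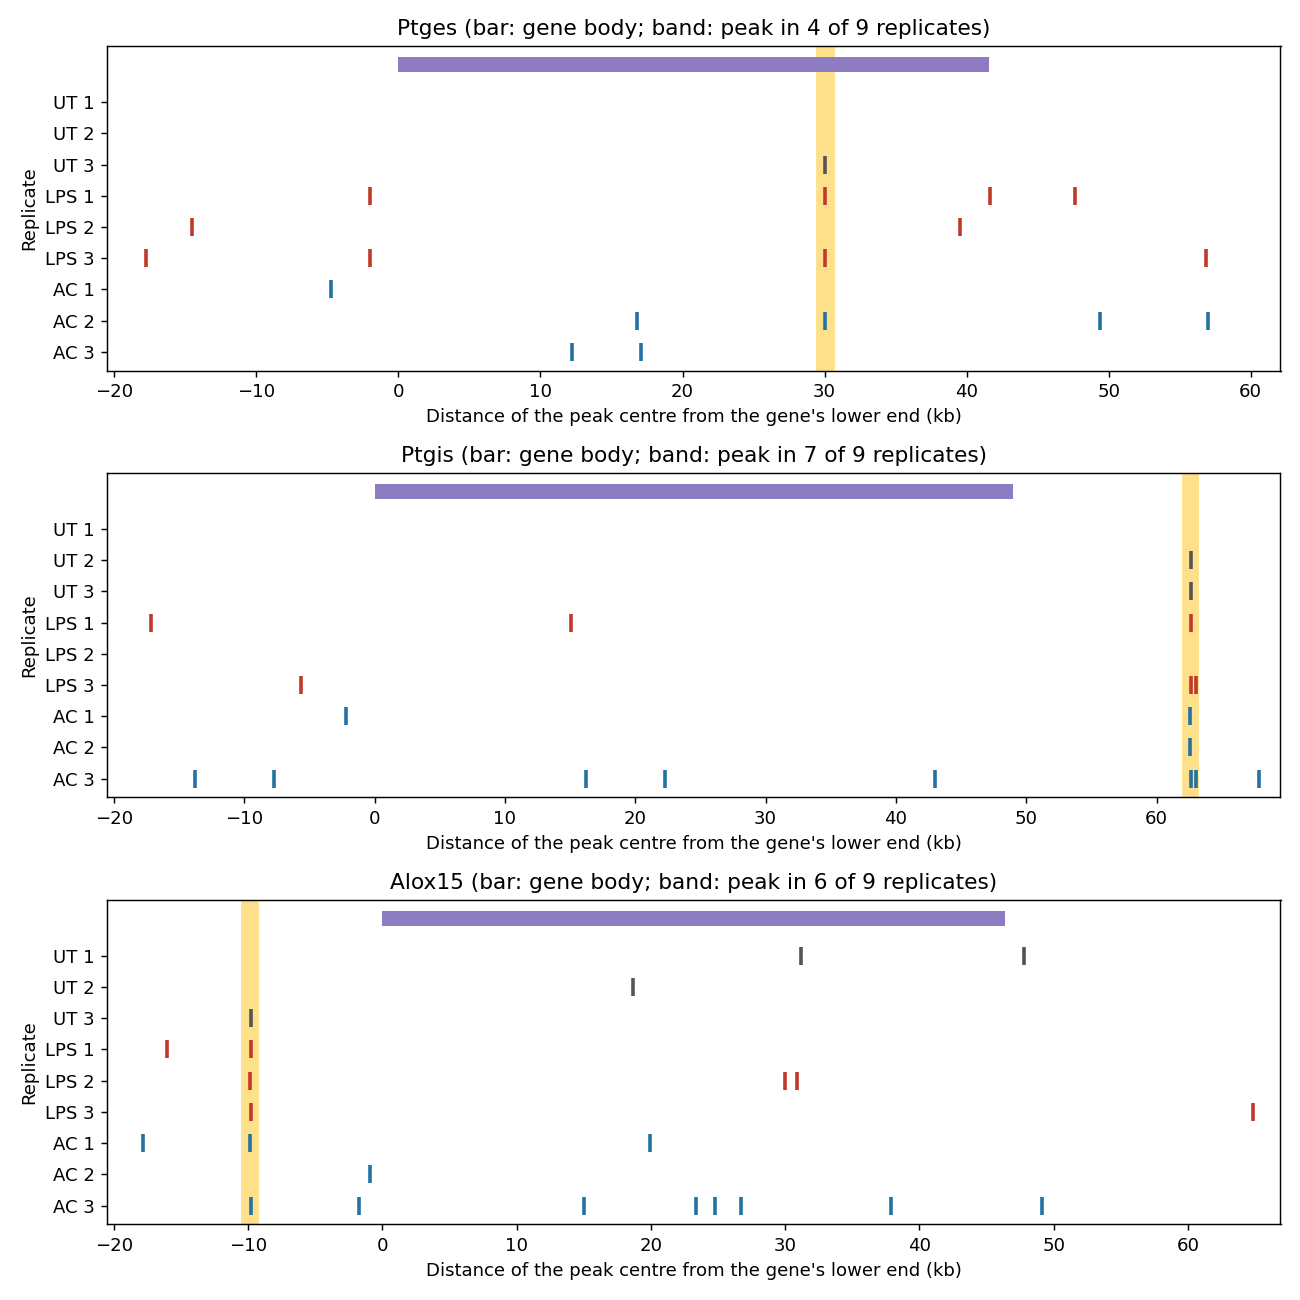
Peaks of each replicate (rows, as marks at the peak centres) around Ptges, Ptgis and Alox15, by distance from the gene's lower-coordinate end in kb, with a bar for the gene body and a yellow band, widened for visibility, at each gene's most widely shared region. The band holds a peak in 4 of 9 replicates at Ptges, 7 of 9 at Ptgis and 6 of 9 at Alox15, and most other marks stand alone.

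Alox5 encodes 5-lipoxygenase, which makes leukotriene A4 from arachidonic acid. It lies on chromosome 6 from 116410071 to 116461178 and had 2, 2 and 1 peaks without stimulation, 0, 2 and 1 after LPS, and 0, 1 and 3 after apoptotic cells. The means were 1.67 ± 0.58, 1.0 ± 1.0 and 1.33 ± 1.53 peaks (SD, n = 3 each), and the groups overlapped (exact permutation test, two-sided, p = 0.7 for LPS and 1.0 for apoptotic cells against unstimulated). Inside the gene, from 116449694 to 116450131 and 11047 bp downstream of its start, unstimulated replicates 1 and 2 had a peak with scores of 52.88 and 207.9. No LPS or apoptotic cell replicate had one listed there, and both replicates with it were of the wide class. It was the one region of the 116 that 2 or more unstimulated but 0 apoptotic cell replicates had, against 0.139% of all regions. A second shared region, 116405929 to 116406411, lay 3660 bp beyond the 3′ end in the neighbouring gene Marchf8, with scores of 80.53 in unstimulated replicate 1 and 93.94 in apoptotic cell replicate 3.

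Alox5ap encodes FLAP, the membrane protein that hands arachidonic acid to 5-lipoxygenase. It lies on chromosome 5 from 149265004 to 149288153 and had 1 peak in each unstimulated replicate, 2, 1 and 1 after LPS, and 0, 2 and 4 after apoptotic cells. The numbers overlapped (exact permutation test, two-sided, p = 1.0 for LPS and 0.7 for apoptotic cells against unstimulated), and a peak was present in 8 of 9 replicates. A pair of neighbouring regions split along the width classes. The region from 149247903 to 149248357, 16647 bp below the gene's lower-coordinate end and in the gene Gm24105, had a peak in unstimulated replicates 1 and 2 and apoptotic cell replicate 2, all of the wide class, with scores of 76.42, 118.88 and 54.01. The region from 149250240 to 149250549, 14455 bp below that end, had a peak in unstimulated replicate 3 and LPS replicates 1 and 3, all of the narrow class, with scores of 150.97, 104.9 and 226.93. What a stimulus and a width class each contributed at these places cannot be told apart.

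Lta4h encodes leukotriene A4 hydrolase, which makes leukotriene B4, and Ltc4s encodes leukotriene C4 synthase, which makes the first cysteinyl leukotriene. Lta4h lies on chromosome 10 from 93453396 to 93484896 and had 4, 1 and 0 peaks without stimulation, 0, 1 and 0 after LPS, and 1, 0 and 2 after apoptotic cells. Its groups overlapped (exact permutation test, two-sided, p = 0.7 for LPS and 0.9 for apoptotic cells against unstimulated), and unstimulated replicate 1 alone gave 4 of its 9 peaks. The highest score, 199.7 in that replicate, was at 93487055 to 93487252, 2159 bp beyond the 3′ end. Ltc4s lies on chromosome 11 from 50236461 to 50238532, is the shortest of the 10 genes at 2.1 kb, and had peaks in only 2 replicates, 3 in LPS replicate 3 and 2 in apoptotic cell replicate 3. These were the replicates with the most peaks in all, 63010 and 79474. The highest Ltc4s score was 208.17 in LPS replicate 3, at 50240148 to 50240257, 1616 bp upstream of the start. None of the 14 regions of these 2 genes had a peak in more than 1 replicate.

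Alox15 encodes 12/15-lipoxygenase, an enzyme of resident peritoneal macrophages and of the making of resolution mediators. It lies on chromosome 11 from 70344147 to 70390538 and was the only one of the 10 genes with a peak in all 9 replicates. It had 2, 1 and 1 peaks without stimulation, 2, 3 and 2 after LPS, and 3, 1 and 8 after apoptotic cells, numbers that overlapped (exact permutation test, two-sided, p = 0.3 for LPS and 0.4 for apoptotic cells against unstimulated). From 70334215 to 70334404, 9743 bp below the gene's lower-coordinate end, 6 of 9 replicates had a peak. Its scores were 115.0 in unstimulated replicate 3, 392.75, 105.47 and 495.57 in LPS replicates 1 to 3, and 179.52 and 127.4 in apoptotic cell replicates 1 and 3. Unstimulated replicates 1 and 2 and apoptotic cell replicate 2 had none listed. The scores of LPS replicates 1 and 3 ranked at the 97.4th and 98.7th percentile of their replicates, and that of LPS replicate 2 at the 30.6th. Regions with a peak in exactly 6 of 9 replicates made up 0.478% of all regions. A peak of unstimulated replicate 1, named after its values were seen, lay 1317 bp beyond the gene's upper-coordinate end from 70391855 to 70392073 and had a score of 371.23, at the 99.3rd percentile of its replicate.

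**Figure D5:**
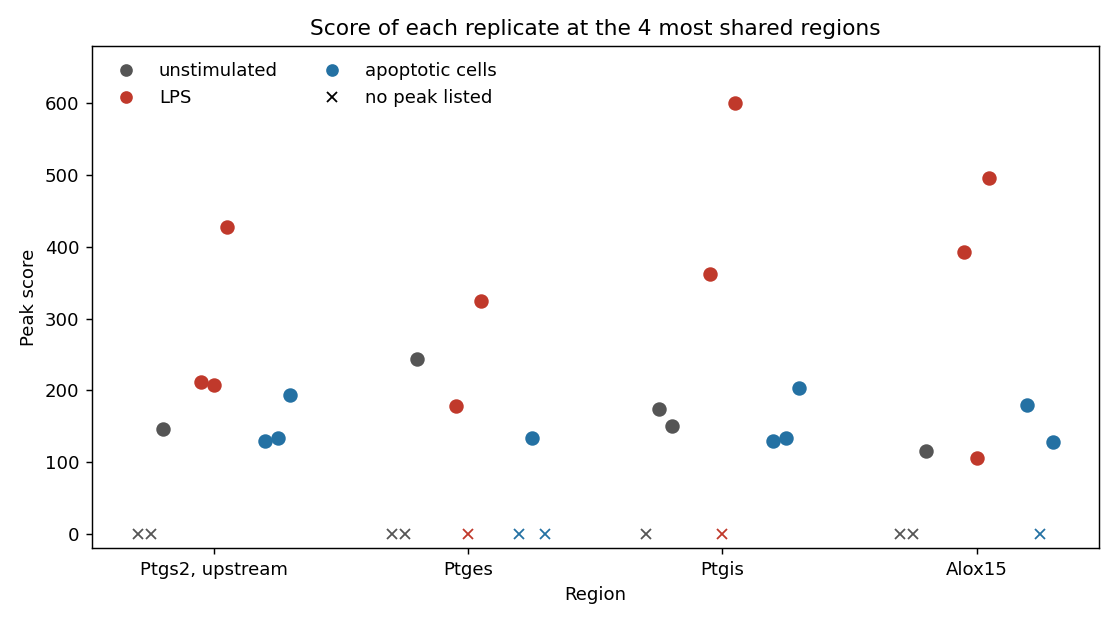
Peak score (vertical axis) of each replicate at 4 shared regions, 29891 bp upstream of Ptgs2, inside Ptges, beyond Ptgis and beyond Alox15, with dots coloured by condition and crosses at 0 where no peak is listed. The Ptgs2 region lies outside the 20 kb window and was singled out after its values were seen, while the others are the most widely shared within the windows. The highest dot at each region is LPS replicate 3, at 427.54, 324.62, 601.12 and 495.57, the replicate with the highest median score over all its peaks (180.72).

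Of all 116 regions, 107 had a peak in 1 replicate and 9 (7.76%) in at least 2, and 56 lay inside one of the 10 genes. Over all regions 89.7% had a peak in 1 replicate. None of the 116 had a peak in 3 of 3 replicates of one condition and 0 of 3 of another. Over all regions such a pattern was found in 0.209% for LPS and not unstimulated, 0.00166% for the reverse, 0.108% for apoptotic cells and not unstimulated, 0.00399% for the reverse, 0.109% for LPS and not apoptotic cells, and 0.00166% for the reverse. With at least 2 of 3 replicates of one condition and 0 of 3 of the other, 2 regions were unstimulated and not LPS, inside Alox5 from 116449694 and near Alox5ap from 149247903, against 0.0862% of all regions. By the same rule 2 were LPS and not apoptotic cells, at Ptges from 30887439 and near Alox5ap from 149250240, against 3.38%. Without unstimulated replicate 3, the Alox15 region was in every LPS and no unstimulated replicate (1 region, against 0.57% of all), and the same Alox5 and Alox5ap regions were in every unstimulated and no LPS replicate (2 regions, against 0.0366%). Leaving out both replicates that stood apart from their condition, LPS 2 and unstimulated 3, a choice made after seeing the data, 4 regions had a peak in both remaining LPS and neither unstimulated replicate, against 5.56% of all regions. They were the Alox15 region, both shared Ptges regions and the Alox5ap region from 149250240. The other way round there were 2, the Alox5 and Alox5ap regions above, against 0.0373%. In the same replicates LPS was wholly above unstimulated at 3 of 10 genes, Pla2g4a, Ptges and Ptgis, against 28.3% of all genes, and unstimulated wholly above LPS at 2, Alox5 and Lta4h, against 1.62%. With both left out, the LPS replicates are of the narrow and the unstimulated ones of the wide class, so that condition and width class cannot be told apart. The authors' gene column named 6 of the 10 genes, in 10 segments, and gave none of the 9 shared regions to them.

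None of the 8 promoters that RefSeq gives for 7 of these genes overlapped a peak of any replicate, against 4.68% of 32851 RefSeq promoters of 300 bases. The nearest peak to an annotated start was 1519 bp downstream at Ptges, 1616 bp upstream at Ltc4s, 1627 bp downstream at Lta4h, 2442 bp upstream at Ptgs2, 2894 bp downstream at Ptgs1 and 9022 bp upstream at Alox5. At Pla2g4a it was 12776 bp downstream of one start and 3493 bp downstream of the other. The sequences of the peaks were not read here, so the promoters were searched on both strands for the AP-1 element TGANTCA and for CGTCA, the core of the cyclic AMP response element. Matches to one of these motifs cannot overlap matches to the other. TGANTCA was in 0 of the 8 promoters, against 7.81% of all RefSeq promoters, and CGTCA in 1, that of Ptgs2, against 20.8%. The stretch around the Ptgs2 start is shown because it held the one match, although no replicate had a peak in it. It is chr1:150099961-150100060 on the plus strand (RefSeq, GRCm38.p6), with 70 bases before the start and 30 from it on, and the match, at bases 14 to 18 from the start, is in capitals.
Ptgs2: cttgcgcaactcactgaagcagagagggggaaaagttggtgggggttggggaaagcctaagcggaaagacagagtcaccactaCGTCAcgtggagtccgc
A match is a description of letters, and the lack of one says only that these letters are not in this window.

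A wider list of 46 genes of the same pathway, with other synthases, phospholipases, lipoxygenases, receptors, transporters and degrading enzymes, was counted in the same way. A peak in 2 or 3 of the 3 replicates was found at 22 of 46 genes (47.8%) without stimulation. It was found at 38 (82.6%) after LPS and 39 (84.8%) after apoptotic cells. All of these lay above the shares of all genes given above. The stimulated ones also lay above the protein-coding shares (73.5% and 69.7%), while the unstimulated one was near its protein-coding share (44.7%). Genes whose windows overlap can count the same peak, so the 46 genes may not all be separate from each other or from the 10 genes above. LPS was wholly above unstimulated at 5 of 46 (10.9%), against 7.6% of all genes and 9.87% of protein-coding genes, and below at 1 (2.17%), against 0.194%. The 5 were Pla2g7, the platelet-activating factor acetylhydrolase, the lipoxygenase Alox12e, the leukotriene receptor Cysltr1, Cyp4f18, which oxidises leukotriene B4, and Ggt5. Pla2g7 had 2, 0 and 1 peaks without stimulation and 3 in each LPS replicate, and Ggt5 had 0, 1 and 0 against 2, 2 and 5. The one lower gene was Ptgfr, the prostaglandin F receptor, with 1, 2 and 1 peaks without stimulation, 0 in each LPS replicate and 2, 1 and 4 after apoptotic cells. Apoptotic cells were wholly above unstimulated at 3 of 46 (6.52%), Mgst2, Ggt5 and Cyp4f18, and below at 0. The shares above were 5.29% of all genes and 6.57% of protein-coding genes, so this count was near the background. Mgst2, a microsomal glutathione transferase that can make leukotriene C4, had 0, 0 and 1 peaks without stimulation and 2, 4 and 4 with apoptotic cells. Between LPS and apoptotic cells, Aloxe3 was higher with LPS, at 2, 3 and 4 against 1, 1 and 1, and Ptgfr higher with apoptotic cells, 1 gene each (2.17%) against 1.89% and 1.33% of all genes. A region shared by 6 or more of the 9 replicates lay within 20 kb of 13 of the 46 genes (28.3%), against 12.3% of all and 16.6% of protein-coding genes. Among the 13 were the receptors Ptger2, Ptgdr and Tbxa2r and the synthases Hpgds and Tbxas1. How many different regions lay near these 13 genes was not counted, and genes with overlapping windows can share one.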

How the data were processed

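The data are 9 FRA-1 ChIP-seq replicates, 3 per condition; 3 pooled input samples have no table here and were not used. Per the labels, libraries were single-read, and the submitters' processing notes name BWA 0.7.14, bedtools, mm10 and GRCm38; the peak caller is not given in the sources used here. The authors deposited 1 table per condition with a score per replicate for each genomic segment, -1 meaning no peak, and a gene where one was assigned. By its range it was taken to be a p-value on the Phred scale. The tables hold no reads, so sequencing depth is unknown and no interval or floor on counts can be given.

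Repeated rows were dropped, adjoining segments with one score were joined into peaks, and peaks of all 9 replicates that overlapped by at least 1 bp or touched were merged into regions. Peaks within 20 kb of each RefSeq gene were counted per replicate, and conditions compared by exact two-sided permutation tests over replicates (Python 3.11.15, numpy 2.4.6, pandas 2.3.3; figures with matplotlib 3.10.9). Shares of all genes or regions under the same rule serve as background. On simulated data 7200 of 7200 peaks and 1800 of 1800 window counts were recovered. All 10 genes are named, and regions are described where at least 2 replicates have a peak or where they hold a gene's highest score. The genes, lists and rules were chosen with earlier results of these data known. Alternatives were other windows, the deposited gene column alone, a score of at least 100, equal numbers of top peaks, scaling per 10000 peaks and leaving out replicates. Genome sequence under the peaks, exons and introns were not used here.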

Additional observations from a re-analysis of the deposited data

How the results depend on the processing

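Depth is unknown, and 3 replicates against 3 allow no exact p below 0.1, so these values show only how far counts move. With the deposited gene column alone, which gave the 10 genes only 10 segments in all, the called differences at Pla2g4a, Ptges and Ptgs2 fell to 0.0. That at Ptgs2 did so within 5 kb too. No called difference changed sign. Differences of single genes that were not called did: LPS minus unstimulated turned negative at Alox15 (-0.3333 within 5 kb, -0.6667 with equal numbers of top-scoring peaks) and Alox5ap (-0.3333 with equal numbers). Apoptotic cells minus unstimulated turned negative at Alox5ap (-0.3333 with equal numbers). It turned positive at Ptgs1 (0.3333 within 50 kb or without unstimulated replicate 2), Alox5 (1.333 within 50 kb, 0.3333 without apoptotic cell replicate 1) and Lta4h (0.5 without unstimulated replicate 1). Of the values compared under the alternatives, 173 of the main counts and means stayed within 1.5 times or 1 SD and 47 moved. No paired analysis was possible because no column of scores is tied to a mouse. The cause of each move was not tested, other than fewer or more peaks entering by construction.

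With a window of 5 kb, genes with a peak in at least 2 replicates were 3 without stimulation and 4 after LPS, mean peaks 4.667 and 8.667, and 1 gene was called for LPS and 1 for apoptotic cells above unstimulated. With 50 kb, 8 genes had such a peak without stimulation, and mean peaks were 12.33 and 30.33 after LPS. No share of all genes is given beside the gene counts of this paragraph, at these windows or under the settings that follow, so they are not read against a background. By the deposited gene column alone these genes numbered 0, 0 and 1 (unstimulated, LPS, apoptotic cells), mean peaks were 0.6667, 1.333 and 1.333, and 0 genes were called for LPS and 0 for apoptotic cells. With a score of at least 100 the LPS mean was 12.0 and 1 gene was called for LPS. With equal numbers of top-scoring peaks the LPS mean was 5.667, below the unstimulated 6.333, so that the order of these means turned, and 0 genes were called for LPS and 1 for apoptotic cells. Per 10000 peaks, 1 gene was called for LPS over unstimulated, Ptges, and 1 for LPS over apoptotic cells, Ptgs1. Asking for 1 of 3 replicates gave 8 genes without stimulation, and 3 of 3 gave 3, and 5 after apoptotic cells. Asking for a peak in at least 2 of 3 replicates of one condition and none of the other gave 1 region for LPS against unstimulated and 2 for the reverse, 1 for unstimulated against apoptotic cells, and 2 for LPS against apoptotic cells. Without LPS replicate 2 and unstimulated replicate 3 together, chosen after seeing the data, 2 genes were higher unstimulated than after LPS, and the regions numbered 4 for LPS against unstimulated, 2 for the reverse, 1 for unstimulated against apoptotic cells and 2 for LPS against apoptotic cells.

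Leaving out each replicate in turn, genes with a peak in at least 2 replicates ranged from 3 to 4 without stimulation (3 without unstimulated replicate 2), 5 to 6 after LPS and 5 to 7 after apoptotic cells (5 without apoptotic cell replicate 3). Mean peaks ranged from 7.0 to 8.5, 15.5 to 17.0 and 13.0 to 27.5, with 13.0 without apoptotic cell replicate 3. Genes called numbered 2 to 3 for LPS over unstimulated (3 without unstimulated replicate 1 or 2 or LPS replicate 2), 2 to 4 for apoptotic cells over unstimulated (4 without apoptotic cell replicate 1 or 2, 3 without unstimulated replicate 3), 0 to 1 for LPS over apoptotic cells (Ptgs1, without apoptotic cell replicate 3) and 0 to 1 for apoptotic cells over LPS (Ptgs2, without LPS replicate 1). The rule for a call is easier to meet with fewer replicates, and no share of all genes is given for the gene counts of this paragraph so far. With LPS replicate 2 and unstimulated replicate 3 both left out, 28.3% of all genes were called for LPS over unstimulated, against 7.6% with all replicates. Regions in every replicate of one condition and none of the other ranged from 0 to 1 for LPS against unstimulated (1 without unstimulated replicate 3 or LPS replicate 2), 0 to 2 for the reverse and 0 to 1 for unstimulated against apoptotic cells (both without unstimulated replicate 3), and 0 to 2 for LPS against apoptotic cells (without LPS replicate 2).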
